A study of Mus musculus with 15 samples.

Results

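The effect of a leptin-neutralizing antibody on gene expression was compared between injured kidney and injured lung. For each gene the log2 fold change of LepAb against control IgG in kidney was reduced by that in lung. A positive difference means that expression rose more, or fell less, with LepAb in kidney than in lung. The comparison rests on the 12 libraries of injured organs out of 15 in the series, with 3 libraries in each of 4 groups. It covers 21488 of the 56748 genes in the table, those that passed a filter on low counts. All libraries came from male wild-type C57Bl/6 mice. Kidney mice, 10 to 12 weeks of age, received a single intraperitoneal dose of folic acid at 200 mg/kg, which injures the tubules. From day 1 they were given control IgG (IgGK) or the human monoclonal antibody LepAb (LepK) at 10 mg/kg every other day for 21 days. They were euthanized at day 28. Lung mice, 12 weeks of age, received bleomycin at 1.5 units/kg into the trachea, which injures the alveoli. They were given IgG (IgGL) or LepAb (LepL) at the same dose from day 1 for 14 days. They were euthanized at day 14. Vehicle-treated kidneys (WTK, 3 libraries) were used only as a background level, and no vehicle-treated lung was analysed here. Organ, insult, length of treatment and day of euthanasia differ together and cannot be told apart in any value below. The RNA was from whole tissue, so fewer cells of a type and less RNA per cell cannot be told apart either. Each library carries its own replicate label, and p-values measure the spread between these libraries.

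Leptin is a hormone made by fat cells that acts through the receptor LEPR and the kinase JAK2, which activates STAT3. It is best known for the control of food intake by the brain, and it also acts on immune cells and fibroblasts. Fibrosis in kidney and lung shares a core in which fibroblasts lay down collagens and other matrix proteins, often driven by TGF-beta, while macrophages and other immune cells enter the tissue. The epithelia differ: in kidney the injured cells are mostly those of the proximal tubule, which are rich in mitochondria, and in lung the alveolar type 2 cells, which make surfactant and renew the alveolar lining.

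Total counts of the 12 libraries ranged from 25913969 to 38924788. The lists of markers matched the labelled organs: the summed level of 20 proximal tubule genes was 20812 to 31028 CPM (counts scaled to library size) in IgGK and 733 to 991 in IgGL, and that of 16 alveolar type 2 genes was 1605 to 1905 and 8198 to 15257 CPM. Some libraries stood apart. IgGK replicates 1 and 2 carried transcripts of the adrenal cortex, a gland that lies on the kidney, with summed levels of 796 and 982 CPM against 80.6 CPM in IgGK replicate 3 and 75 to 99.98 CPM in LepK. Within IgGL, replicate 1 lay closer to LepL than replicates 2 and 3 did on the first principal component of the lung libraries (-0.51 against -29.96 and -33.79, with LepL at 17.9 to 27.5). Skeletal muscle transcripts also varied in lung, at 1279, 906 and 381 CPM in IgGL replicates 1 to 3 and 1200.4, 2227 and 2873 CPM in LepL. The share of counts on the mitochondrial genome was 5.85% to 6.27% in IgGK, 8.01% to 9.65% in LepK, 1.19% to 1.61% in IgGL and 1.84% to 2.09% in LepL.

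The antibody effect differed between the organs for 1531 genes, 7.12% of those tested, at a Benjamini-Hochberg adjusted p under 0.05 in edgeR's quasi-likelihood test of the difference itself. The difference was above 0 for 754 genes (3.51%) and below 0 for 777 (3.62%). Its median absolute size among these genes was 0.91 on the log2 scale, where the median standard error over all genes tested was 0.31. Within an organ a gene was called at the same adjusted p and an absolute log2 fold change over 0.5. By that rule 583 genes (2.71%) rose and 951 (4.43%) fell in kidney, and 1069 (4.97%) rose and 998 (4.64%) fell in lung. The libraries of the IgG and LepAb groups did not overlap for 35.1% of all genes in kidney and 31.1% in lung. For 12.2% of all genes they overlapped in neither organ, so a lack of overlap is common. Across the 21488 genes tested, the effects in the 2 organs had a Pearson correlation of 0.03 and a Spearman correlation of 0.06, as a description only, since genes are not independent replicates. Of the 754 genes with a higher difference, 245 fell in lung and were not called in kidney, and 119 rose in kidney and were not called in lung. A further 20 rose in kidney and fell in lung, and 370 passed neither test within an organ. Of the 777 with a lower difference, 285 fell in kidney and were not called in lung, and 267 rose in lung and were not called in kidney. Of the rest 38 fell in kidney and rose in lung, 185 passed neither test and 2 rose in both organs. Most calls depended on single libraries: 102 of the 754 and 166 of the 777 were also called in each of the 12 fits that left out 1 library. Leaving out IgGL replicate 1 gave 3763 calls and IgGL replicate 2 gave 352. For a named gene, the bracket below gives its log2 difference, kidney minus lung, with the standard error (SE), the adjusted p of edgeR and how many of these 12 fits called it. Scaling by library size alone, which moved the median difference of all genes to -0.25 from -0.01, gave 249 higher and 1968 lower calls, and upper-quartile scaling gave 571 and 912.

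**Figure D1:**
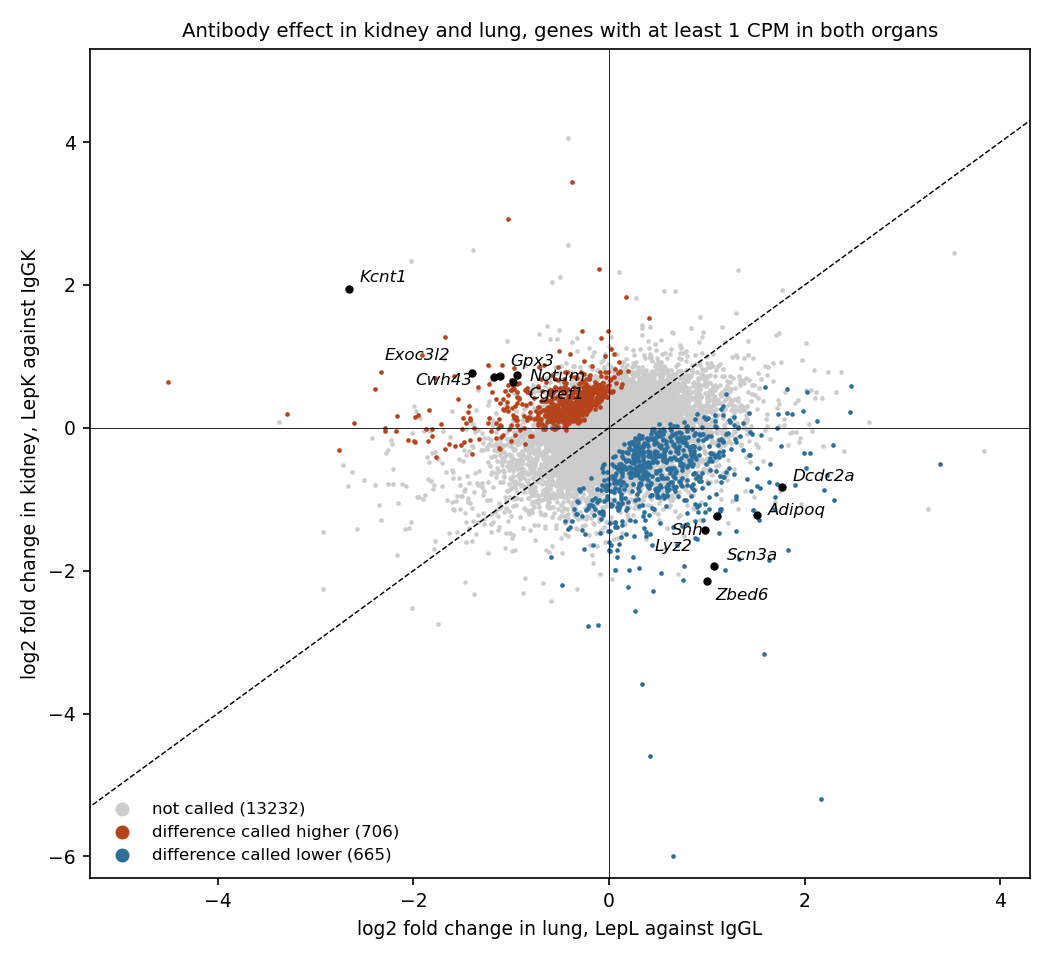
Antibody effect in lung (x axis, log2 fold change of LepL against IgGL) and in kidney (y axis, log2 fold change of LepK against IgGK) for the 14603 genes with a mean of at least 1 CPM in both organs. Orange and blue points are the 706 and 665 genes whose difference was called higher or lower. Black points are 12 genes called in opposite directions in the 2 organs, and genes on the dashed line have equal effects.

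Some genes rose in one organ and fell in the other. *Kcnt1*, a sodium-activated potassium channel (ENSMUSG00000058740, chromosome 2, 25753746 to 25808285, genome build GRCm39 here and below), was at 9.83, 9.15 and 7.71 CPM in IgGK and at 46.1, 28.6 and 28.3 CPM in LepK. In lung it was at 5.31, 7.70 and 3.64 CPM in IgGL and at 0.589, 1.20 and 0.840 CPM in LepL. The groups did not overlap in either organ, and WTK kidneys were higher still, at 73.2 to 90.1 CPM. Its log2 difference was 4.60 (SE 0.43, adjusted p = 0.000430, 12 of 12), from 1.95 in kidney and -2.66 in lung. *Exoc3l2*, which is related to a subunit of the exocyst complex of secretory vesicles (ENSMUSG00000011263, chromosome 7, 19197256 to 19230687), had the smallest adjusted p of these genes. Its level was 24.6, 25.9 and 26.1 CPM in IgGK and 47, 40.8 and 43.1 CPM in LepK. In lung the values were 12.9, 14 and 12.3 CPM in IgGL and 4.62, 4.82 and 5.38 CPM in LepL, so the libraries of a group lay close together and the groups far apart. The difference was 2.18 (SE 0.15, adjusted p = 4.11e-05, 12 of 12). *Gpx3*, a secreted glutathione peroxidase made in the proximal tubule (ENSMUSG00000018339, chromosome 11, 54793279 to 54801203), was at 12299 to 12876 CPM in IgGK, 18939.5 to 22344 in LepK, 1436 to 2035 in IgGL and 691 to 1038 in LepL. It rose by 0.72 in kidney and fell in lung (-1.12), and the difference was 1.84 (SE 0.24, adjusted p = 0.00445, 12 of 12). *Cgref1*, a secreted calcium-binding protein, differed by 1.62 (SE 0.19, adjusted p = 0.00307, 12 of 12). *Cwh43*, which acts on the lipid part of GPI anchors, differed by 1.89 (SE 0.31, adjusted p = 0.00906, 12 of 12). *Notum*, a secreted enzyme that inactivates Wnt proteins, differed by 1.68 (SE 0.31, adjusted p = 0.0145, 12 of 12). It overlaps an antisense gene that this unstranded library cannot separate from it. For each of these 6 genes the mean of LepK lay between those of IgGK and WTK.

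In the other direction, *Lyz2*, a lysozyme counted below with macrophage genes (ENSMUSG00000069516, chromosome 10, 117113236 to 117118226), was at 1145, 1439 and 1170.4 CPM in IgGK and 323, 533 and 533 CPM in LepK. It was at 5053, 3242 and 2094 CPM in IgGL and 6794, 6652 and 7028 CPM in LepL. The log2 fold change was -1.44 in kidney and 0.98 in lung. The groups did not overlap in either organ, and the difference was -2.41 (SE 0.37, adjusted p = 0.00733, 12 of 12). Its near copy *Lyz1*, counted below with alveolar type 2 genes, differed by -3.30 (SE 0.54, adjusted p = 0.00878, 12 of 12). Which cells held the transcripts of *Lyz2* was not tested. Reads shared by the pair could have been split between them. *Shh*, a hedgehog ligand (ENSMUSG00000002633, chromosome 5, 28661813 to 28672254), was at 2.19 to 3.31 CPM in IgGK and 0.884 to 1.38 in LepK. Lung libraries held 7.52 to 11.1 CPM in IgGL and 17.1 to 22.6 in LepL, and the difference was -2.34 (SE 0.33, adjusted p = 0.00588, 12 of 12). *Adipoq*, the fat cell hormone adiponectin, differed by -2.74 (SE 0.52, adjusted p = 0.0153, 12 of 12). The value for *Dcdc2a*, a doublecortin protein of microtubules and cilia, was -2.60 (SE 0.31, adjusted p = 0.00307, 12 of 12). *Scn3a*, a voltage-gated sodium channel, had 1.45 to 1.73 CPM in IgGK and 0.42 CPM in each LepK library. It rose in lung with 4.58 to 10.3 CPM in IgGL and 12.7 to 17.3 CPM in LepL, with a difference of -3.01 (SE 0.42, adjusted p = 0.00555, 12 of 12). *Zbed6*, a transcription factor whose gene lies within *Zc3h11a* on the same strand, differed by -3.15 (SE 0.44, adjusted p = 0.00586, 12 of 12). Its reads cannot be told from those of its host.

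**Figure D2:**
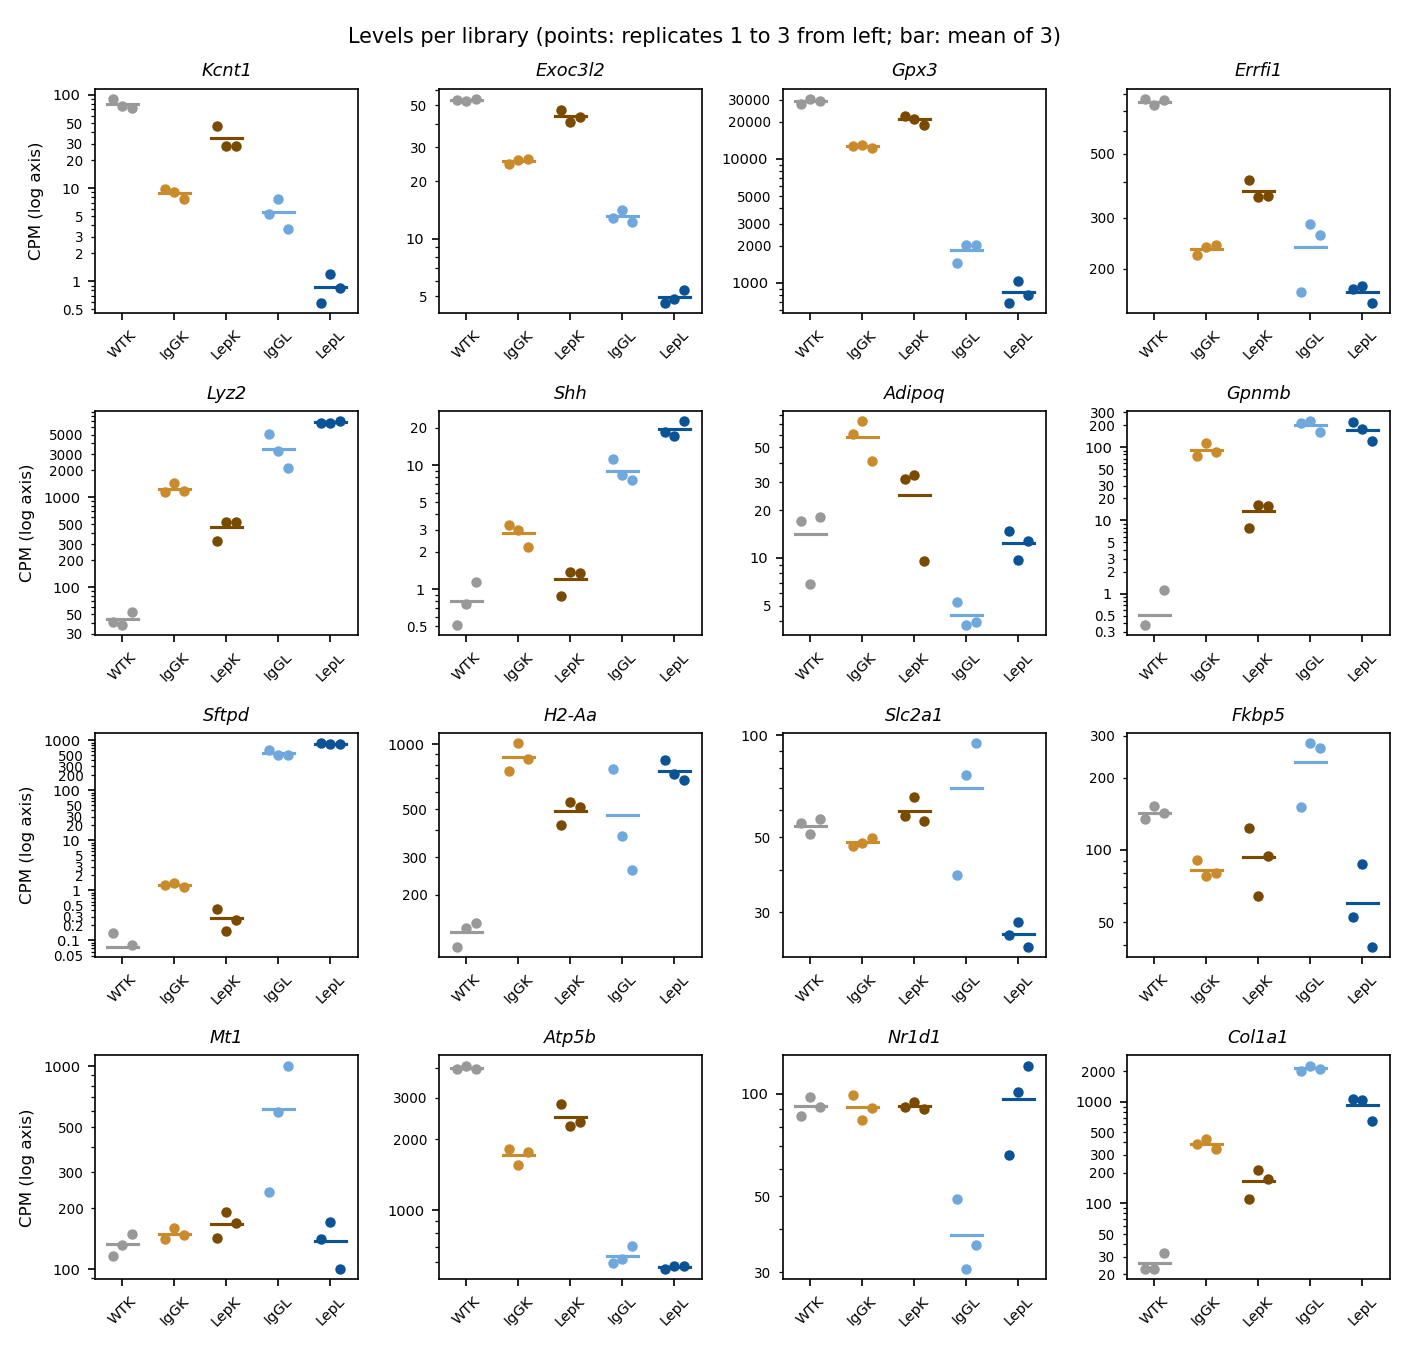
Level of 16 genes in each library (y axis, CPM on a log axis; points are replicates 1 to 3 from left to right, bars are means of 3) in WTK, IgGK, LepK, IgGL and LepL. *Kcnt1*, *Exoc3l2* and *Gpx3* rose in kidney and fell in lung, *Lyz2*, *Shh* and *Adipoq* did the opposite, and *Col1a1* fell in both. The WTK libraries at 0 for *Gpnmb* (1 library) and *Sftpd* (1 library) cannot be drawn on a log axis.

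Among genes with at least 1 CPM in both organs, the highest differences were mostly those of genes that fell in lung. *Arg1*, arginase 1 of wound-healing macrophages, was at 33.4, 169.8 and 601 CPM in IgGL and 12.2, 16.4 and 6.96 CPM in LepL. In kidney it was at 1.49 to 4.42 CPM in IgGK and 0.803 to 12.3 in LepK. It fell in lung, where the IgGL libraries differed widely from each other, and its difference was 5.15 (SE 1.42, adjusted p = 0.0460, 2 of 12). *Chil3*, another gene of such macrophages, was at 0.298, 0.896 and 0.196 CPM in IgGK and 1.54, 7.86 and 1.35 CPM in LepK, a rise at low levels. Lung held 372 to 949.9 CPM in IgGL and 287 to 378 in LepL. Its difference was 3.96 (SE 0.89, adjusted p = 0.0238, 8 of 12). *Fst*, follistatin, which binds activin, had 61, 153 and 242 CPM in IgGL and 27.9, 31.7 and 15.6 CPM in LepL. Kidney held 12.1 to 15.5 CPM in IgGK and 12 to 17.1 in LepK, where the groups overlapped. Its difference was 2.67 (SE 0.54, adjusted p = 0.0192, 12 of 12). A fall in lung and no call in kidney was also found for *Cyp26b1*, which breaks down retinoic acid (2.47, SE 0.43, adjusted p = 0.0106, 12 of 12), for *Amn*, the membrane partner of the tubule receptor cubilin (2.94, SE 0.46, adjusted p = 0.00780, 12 of 12), and for *Sectm1b* (2.93, SE 0.54, adjusted p = 0.0142, 12 of 12). *Hif3a*, a regulator of the hypoxia response, differed by 2.96 (SE 0.62, adjusted p = 0.0201, 8 of 12), and *Nrip3* by 3.11 (SE 0.64, adjusted p = 0.0192, 9 of 12). *Cck*, the gut and brain peptide cholecystokinin, differed by 3.48 (SE 0.86, adjusted p = 0.0324, 1 of 12), and *Pappa*, a protease that cleaves IGF-binding proteins, by 2.45 (SE 0.61, adjusted p = 0.0326, 2 of 12). These 4 also fell in lung.

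Several of the lowest differences followed the adrenal transcripts. *Star*, which carries cholesterol into mitochondria for steroid synthesis, was at 248, 287 and 10.9 CPM in IgGK replicates 1 to 3 and at 6.06 to 8.62 CPM in LepK. *Bcan* (3.24, 4.45 and 0.0327 CPM in IgGK), *Prss35* (14, 16.3 and 3.33 CPM) and *Gsg1l* (3.80, 4.83 and 0.392 CPM) were likewise low in IgGK replicate 3. LepK held under 1 CPM of each. Their differences of -5.02 (10 of 12), -7.37 (6 of 12), -6.65 (12 of 12) and -4.75 (9 of 12) move with the adrenal transcripts, whose part in them was not tested. Without both of those IgGK libraries, which leaves a lone IgGK library assumed to vary like the other groups, 2 genes were called higher and 2 lower in all. Of the remaining low differences, *Car3*, carbonic anhydrase 3 of fat and muscle, was at 203 to 316 CPM in IgGK and 82.6 to 189 in LepK. It rose in lung with 17.1 to 49 CPM in IgGL and 98.8 to 170.0 CPM in LepL (-3.06, SE 0.55, adjusted p = 0.0125, 12 of 12). *Dcstamp*, which macrophages need to fuse, was at 2.53 to 4.67 CPM in IgGK, 1.01 to 1.07 in LepK, 1.01 to 4.42 in IgGL and 4.20 to 7.78 in LepL (-3.17, SE 0.64, adjusted p = 0.0186, 11 of 12). *Mamdc2* fell in kidney with 5.33 to 8.22 CPM in IgGK and 1.04 to 1.99 CPM in LepK. It was at 18.7 to 58.6 CPM in IgGL and 54.1 to 74.8 in LepL (-2.89, SE 0.50, adjusted p = 0.0110, 12 of 12). *Slc7a10*, an amino acid transporter found in fat cells (-3.54, SE 0.88, adjusted p = 0.0327, 5 of 12), overlaps *Lrp3* on the opposite strand. *Igkv4-72*, an antibody variable segment (-3.89, SE 1.04, adjusted p = 0.0415, 3 of 12), was at 5.86, 0.362 and 6.12 CPM in LepL, with replicate 2 within the range of IgGL.

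The main chains of type I and III collagen fell in both organs without a called difference. *Col1a1*, the main chain of type I collagen (ENSMUSG00000001506, chromosome 11, 94827050 to 94843868), was at 384, 429 and 342 CPM in IgGK and 111, 215 and 175 CPM in LepK. In lung it was at 2009, 2278 and 2113 CPM in IgGL and 1076, 1052 and 644 CPM in LepL, and the groups did not overlap in either organ. Its log2 fold change was -1.21 in kidney and -1.21 in lung. The difference was 0.00, with a 95% interval of -0.68 to 0.68. *Col1a2* (-0.14, interval -0.73 to 0.44) and *Col3a1* (-0.51, interval -1.08 to 0.06) also fell in both organs without a called difference. The intervals leave room for differences of that size. A list of 9 genes chosen for RT-qPCR held no called difference. With 7.12% of all genes called, a list this short could hold none. In it *Ccn2*, a matrix-associated growth regulator, had a difference of 0.69 (adjusted p = 0.0980) and the chemokine *Ccl2* one of 1.14 (adjusted p = 0.128). The value of *Ifng* was -4.51 (adjusted p = 0.0833), with at most 0.58 CPM in any library. These 3 had an interval that left out 0 before adjustment. *Tgfb1*, the gene of TGF-beta 1, had a difference of -0.14 (interval -0.61 to 0.32). That of *Il1b* was -0.62 (interval -1.77 to 0.53), and the interval of *Il6* was -0.07 to 4.27. Over all genes, 174 fell in both organs, 18.3% of those that fell in kidney and 17.4% of those that fell in lung. None of the 174 had a called difference. The median of their differences was -0.03, and 125 had a 95% interval within 1 of 0. A further 77 genes rose in both, of which 2 had a called difference and 61 an interval within 1 of 0. Both sets were chosen by calls in the same direction in both organs from this same fit. That choice itself favours small differences, so these values are a description and no test of equal effects. The 6 narrowest intervals among those that fell belonged to *Lama4* and *Nid1*, proteins of the basement membrane, *Flna* and *Dpysl3* of the cytoskeleton, the chemerin receptor *Cmklr1* and the ceramide kinase *Cerk*. The interval was -0.35 to 0.29 for *Lama4* and -0.52 to 0.16 for *Cmklr1*. Among genes that rose they belonged to *Hadh*, an enzyme of fatty acid oxidation, *Cisd1* of the mitochondrial outer membrane, *Aspg*, the calcium-binding *S100g*, the kinase *Wnk4* and the vitamin C transporter *Slc23a1*, with an interval of -0.24 to 0.36 for *Cisd1*. *S100g* and *Slc23a1* overlap other expressed genes on the opposite strand.

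**Figure D3:**
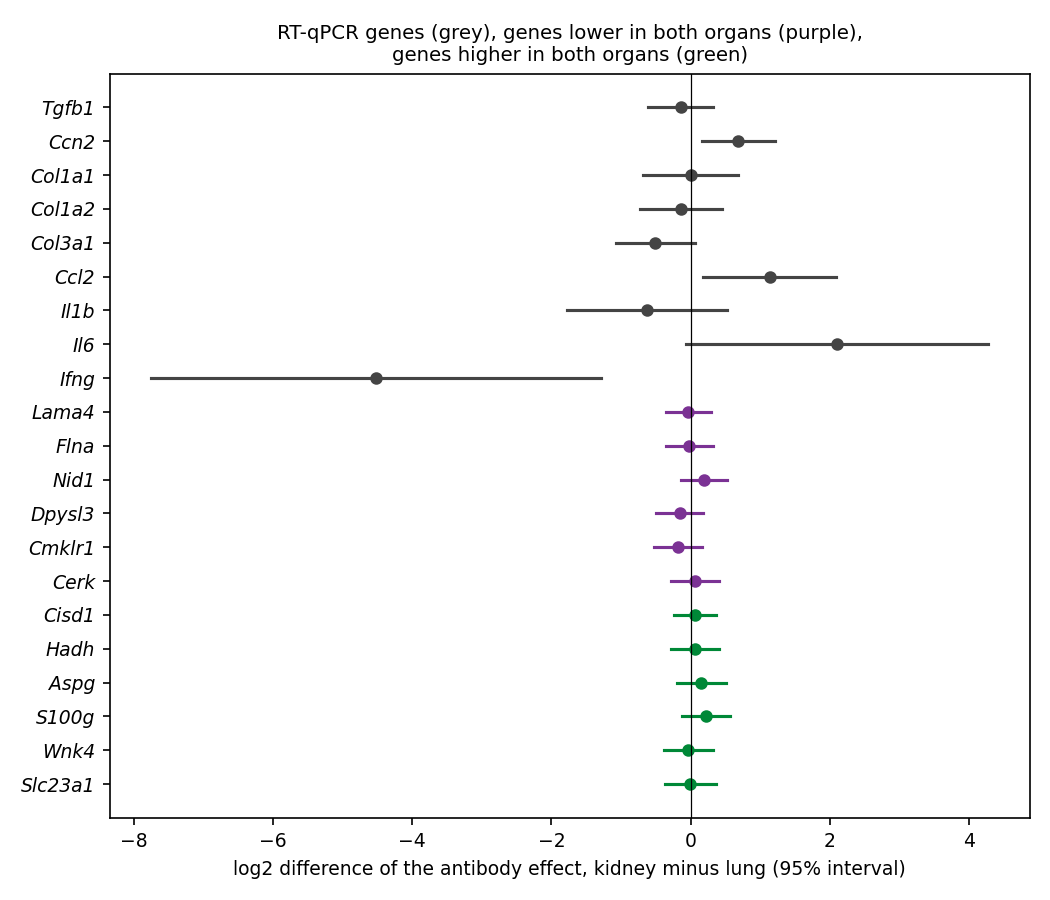
Log2 difference of the antibody effect, kidney minus lung (x axis; points are estimates, lines 95% intervals), for the 9 RT-qPCR genes (grey) and the 12 genes with the narrowest intervals among those called lower (purple) or higher (green) in both organs. The interval of *Col1a1* spans 0 from -0.68 to 0.68, and those of *Il6* and *Ifng*, which had few counts in kidney or in both organs, are the widest.

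Counted over lists of genes, of 11 fibrillar collagens tested the median difference was 0.05, beside -0.01 for all genes. It came from medians of -0.83 in kidney and -1.02 in lung. Of the 11, *Col5a3* and *Col27a1* differed, which is 18.2%, beside 7.12% of all genes. The share was 12.5% of 32 other collagens and 12.9% of 31 matricellular and glycoprotein genes, and 2 of 20 enzymes that process collagen differed. *Col5a3*, a minor chain of type V collagen, was at 16.8 to 22.1 CPM in IgGK and 17.2 to 20.9 in LepK. It fell in lung, with 44.1, 119 and 167 CPM in IgGL and 17.6 to 28.6 in LepL (2.13, SE 0.49, adjusted p = 0.0256, 7 of 12). *Col27a1* rose in kidney (0.91, SE 0.14, adjusted p = 0.00700, 12 of 12). In the matricellular and glycoprotein list the median difference was 0.13, with 2 higher (*Eln*, elastin, and the laminin chain *Lamb1*) and 2 lower (*Thbs3* and *Postn*). *Eln* was at 2557 to 4375 CPM in IgGL and 793 to 1478 in LepL, without overlap. The kidney groups overlapped, at 37.7 to 41.7 CPM in IgGK and 25.3 to 39.8 in LepK (1.27, SE 0.33, adjusted p = 0.0396, 3 of 12). Of 18 genes of fibroblasts and myofibroblasts *Acta2*, the smooth muscle actin, was the only call. It was at 284 to 392 CPM in IgGL, 169 to 208 in LepL, 73.3 to 81.3 in IgGK and 66.3 to 78.4 in LepK (0.68, SE 0.18, adjusted p = 0.0384, 2 of 12). *Postn*, periostin, and *Col12a1* fell more in kidney (-0.72, SE 0.20, adjusted p = 0.0449, 2 of 12, and -1.22, SE 0.27, adjusted p = 0.0223, 10 of 12). *Thbs3* (-1.49, SE 0.25, adjusted p = 0.00906, 12 of 12), which overlaps *Mtx1* on the opposite strand, rose in lung. *Col23a1*, a membrane collagen (1.84, SE 0.29, adjusted p = 0.00780, 12 of 12), fell in lung. *Col14a1* (-1.16, SE 0.29, adjusted p = 0.0338, 3 of 12) rose there, and *Col8a2* (-1.24, SE 0.35, adjusted p = 0.0481, 1 of 12) fell in kidney. Of the processing enzymes, *Plod1* (0.67, SE 0.15, adjusted p = 0.0256, 6 of 12) and *Adamts14* (1.63, SE 0.44, adjusted p = 0.0434, 2 of 12) differed, and the median was 0.14. Of 23 metalloproteinases and inhibitors, *Mmp12*, the macrophage elastase, fell in kidney with 109 to 155 CPM in IgGK and 14.2 to 25.9 CPM in LepK. Lung held 38.7 to 260.0 CPM in IgGL and 102 to 231 in LepL (-2.82, SE 0.70, adjusted p = 0.0328, 3 of 12). *Mmp15* rose in lung (-1.45, SE 0.33, adjusted p = 0.0242, 7 of 12). Of 18 genes of TGF-beta and SMAD responses *Fst* alone differed, and the median was -0.08. The median of the fibrillar collagens was -0.17 with scaling by library size alone. Among the 12 fits that left out 1 library it ranged from -0.19 to 0.51.

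**Figure D4:**
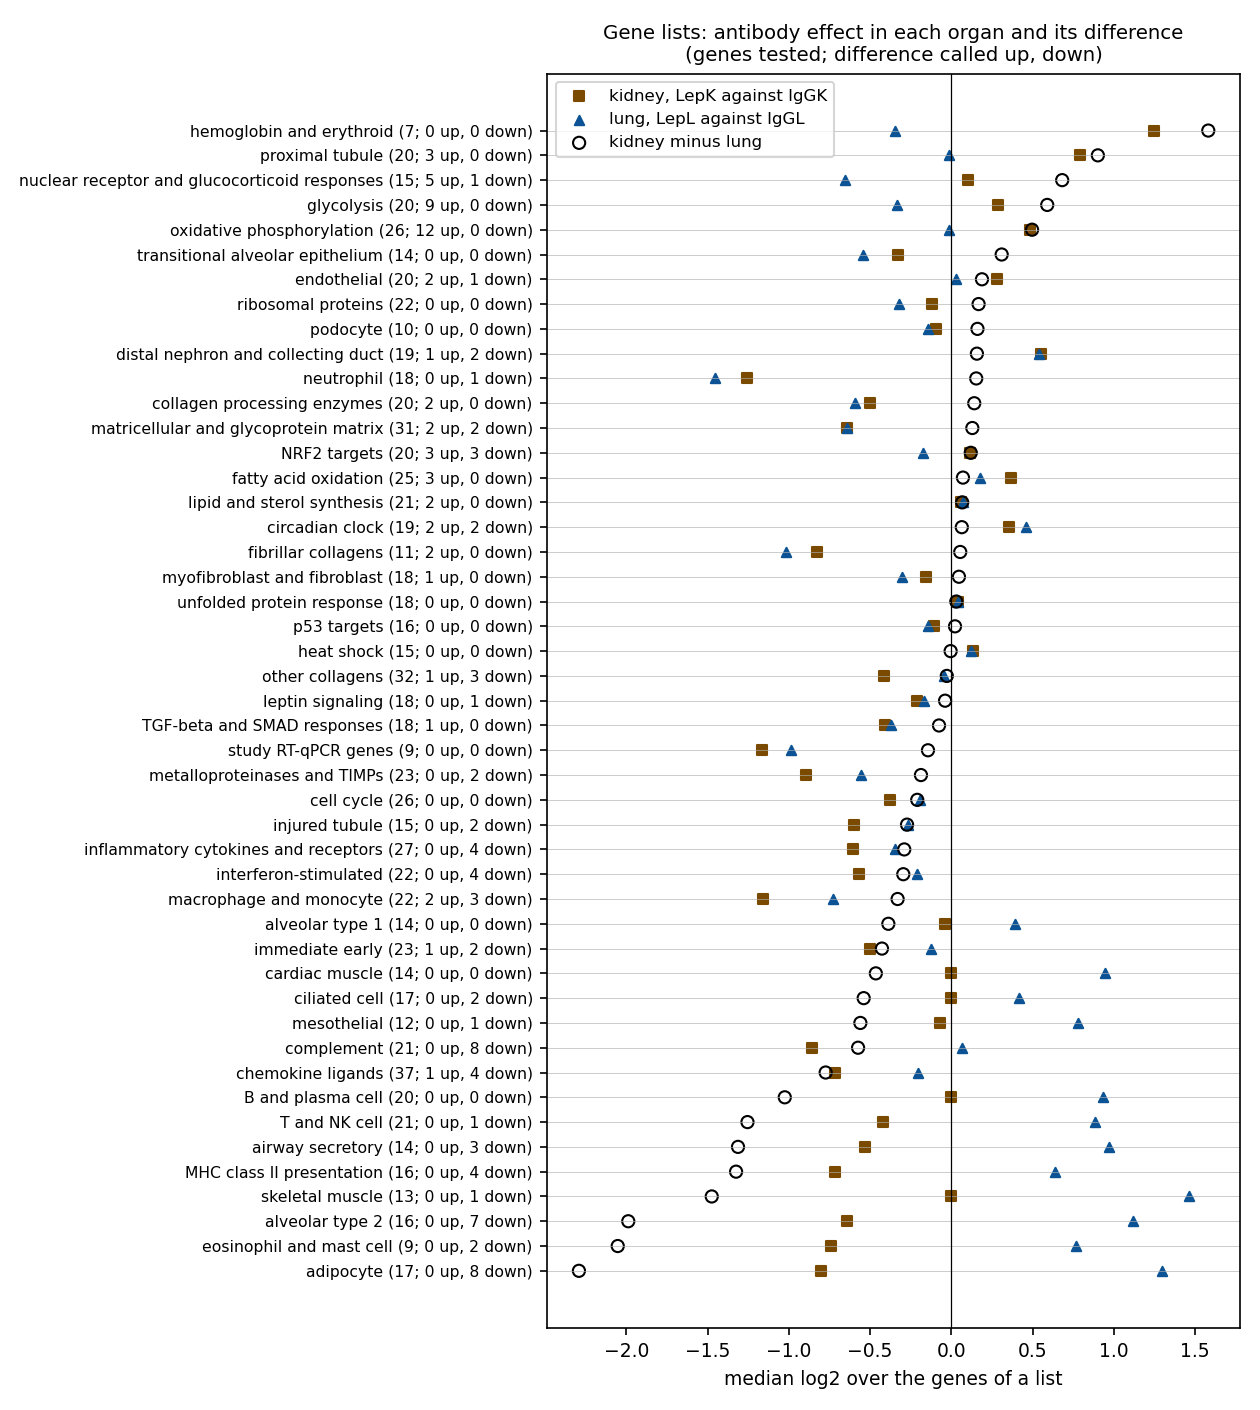
Median log2 fold change with LepAb in kidney (squares) and lung (triangles), and median difference, kidney minus lung (open circles), for 47 lists of genes (y axis; in brackets the genes tested and the number whose difference was called up or down). Matrix lists have circles near 0, while the circles of the adipocyte, alveolar type 2, MHC class II, T and B cell lists lie below -1 and those of oxidative phosphorylation, glycolysis and proximal tubule lie above 0; the adrenal cortex list is left out.

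All 16 genes of MHC class II presentation tested had a difference below 0, beside 10856 of the 21488 genes tested. The median was -1.33, from -0.72 in kidney and 0.64 in lung. The test was passed by 4 of the 16, all lower, beside 3.62% of all genes. *H2-Aa*, the alpha chain of the class II molecule I-A (ENSMUSG00000036594, chromosome 17, 34501718 to 34506797), was at 748, 1010.0 and 853 CPM in IgGK and 425, 539 and 513 CPM in LepK. The lung level was 765, 377 and 261 CPM in IgGL and 847, 732 and 680.2 CPM in LepL, where IgGL replicate 1 lay among the LepL libraries. The groups were apart in kidney and overlapped in lung, and neither change passed the test within its organ. The difference was -1.51 (SE 0.40, adjusted p = 0.0415, 2 of 12). *H2-Ab1*, the beta chain (-1.46, SE 0.41, adjusted p = 0.0495, 1 of 12), and *Cd74*, the invariant chain that escorts class II molecules (-1.52, SE 0.41, adjusted p = 0.0436, 2 of 12), had similar values, and neither passed within an organ. *Ccr7*, the receptor that guides dendritic cells to lymph nodes, fell in kidney and was not called in lung (-1.38, SE 0.36, adjusted p = 0.0368, 3 of 12). These calls depended on single libraries: leaving out IgGL replicate 1 gave 12 calls and a median of -1.70. Leaving out IgGK replicate 2 or IgGL replicate 2 gave 0 calls with medians of -1.08 and -1.10. Class II genes are switched on together from promoters that hold a Y box, with the letters ATTGG or their reverse complement CCAAT. The *H2-Aa* promoter is shown for that element, in RefSeq sequence of build GRCm38.p6 from 250 bases before to 50 after the start (chr17:34287774-34288073, minus strand), with the Y box in capitals. The letters occur in 37.4% of 32851 promoters of the same length, so the match is a description.
H2-Aa: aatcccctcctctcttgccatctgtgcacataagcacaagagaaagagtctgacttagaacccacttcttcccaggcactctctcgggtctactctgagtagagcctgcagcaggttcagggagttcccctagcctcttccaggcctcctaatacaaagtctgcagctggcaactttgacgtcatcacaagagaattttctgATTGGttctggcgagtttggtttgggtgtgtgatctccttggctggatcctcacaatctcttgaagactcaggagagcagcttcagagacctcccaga

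Lymphocyte markers gave few calls. All 21 T and NK cell genes tested had a difference below 0 (median -1.25), and 18 of 20 B and plasma cell genes did (median -1.03). In the first list *Klrb1c*, a receptor of NK cells, was the only call (-1.95, SE 0.54, adjusted p = 0.0466, 2 of 12), and the second had none. Their summed levels were 101, 48.2 and 42.5 CPM in IgGL replicates 1 to 3 and 153, 95.4 and 108 CPM in LepL for T and NK cells, so that IgGL replicate 1 lay within the LepL range. In kidney they were 72.6 to 124 CPM in IgGK and 61 to 80.9 in LepK, which overlapped. Without IgGL replicate 1, 14 T and NK cell genes and 7 B and plasma cell genes were called lower. Of 9 genes of eosinophils and mast cells *Il5ra* (-2.05, SE 0.42, adjusted p = 0.0192, 11 of 12) and *Cpa3* (-4.38, SE 1.21, adjusted p = 0.0466, 2 of 12) were lower. The share called lower was 4.76% of the T and NK cell list and 22.2% of this one, beside 3.62% of all genes.

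Of 22 genes of macrophages and monocytes, 14 fell in kidney and 11 in lung, beside 4.43% and 4.64% of all genes. The median difference was -0.33, with *Arg1* and *Chil3* higher and *Lyz2*, *Gpnmb* and *Ccr2* lower. *Gpnmb*, a glycoprotein of lipid-laden macrophages (ENSMUSG00000029816, chromosome 6, 49013480 to 49047863), was at 76.9, 114 and 85.1 CPM in IgGK and 7.88, 16.4 and 16 CPM in LepK, with 0 to 1.14 CPM in WTK. In lung it was at 217, 226 and 160.5 CPM in IgGL and 219, 176 and 124 CPM in LepL, which overlapped. The difference was -2.56 (SE 0.37, adjusted p = 0.00598, 12 of 12). *Ccr2*, the chemokine receptor of recruited monocytes, was at 83.4 to 136 and 88.7 to 119 CPM in IgGL and LepL and at 67.6 to 78.2 CPM in IgGK and 29.9 to 39.3 CPM in LepK (-0.97, SE 0.24, adjusted p = 0.0312, 4 of 12). Among 37 chemokine ligands *Ccl6* (-1.16, SE 0.29, adjusted p = 0.0325, 6 of 12), *Ccl8* (-1.64, SE 0.35, adjusted p = 0.0207, 10 of 12), *Cx3cl1* (-0.77, SE 0.16, adjusted p = 0.0199, 10 of 12) and *Ppbp* (-1.89, SE 0.48, adjusted p = 0.0338, 3 of 12) were lower. *Cxcl12* was higher (0.65, SE 0.17, adjusted p = 0.0419, 3 of 12). Of the macrophage list 22.7% and of the chemokine ligands 13.5% were called in either direction, beside 7.12% of all genes. Among 27 inflammatory cytokines and receptors 4 were lower (14.8%), beside 3.62% of all genes. The alarmin *Il33* (-2.39, SE 0.39, adjusted p = 0.00878, 12 of 12) is also counted below with alveolar type 2 genes. It rose in lung with 35.1 to 89.1 CPM in IgGL and 141 to 182 CPM in LepL. The others were the macrophage growth factor *Il34* (-0.54, SE 0.12, adjusted p = 0.0229, 7 of 12), *Tnfrsf1b* (-0.84, SE 0.19, adjusted p = 0.0244, 6 of 12) and *Il18r1* (-0.96, SE 0.27, adjusted p = 0.0466, 2 of 12). The calprotectin genes *S100a8* and *S100a9* of neutrophils both fell in lung, with log2 fold changes of -2.02 and -1.79. In kidney *S100a8* fell (-2.53), the value of *S100a9* was -1.69 without passing the test, and neither difference was called. The neutrophil list had a median difference of 0.15, with *Lcn2*, a lipocalin that injured epithelium also makes, as its only call (-1.34, SE 0.27, adjusted p = 0.0191, 12 of 12).

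Of the complement genes 8 of 21 had a lower difference and none a higher one (median -0.57, beside 3.62% of all genes called lower). *C1s1*, a protease of the classical pathway (ENSMUSG00000038521, chromosome 6, 124507304 to 124519318), was at 78.3, 86.3 and 83.5 CPM in IgGK and 39.8, 62.4 and 53.6 CPM in LepK. Lung levels were 91.9 to 141 CPM in IgGL and 146 to 155 in LepL. The groups did not overlap in either organ, as for 12.2% of all genes, and the difference was -1.05 (SE 0.22, adjusted p = 0.0207, 9 of 12). It fell in kidney, as did its partner protease *C1ra* (-0.73, SE 0.17, adjusted p = 0.0256, 6 of 12) and their inhibitor *Serping1* (-0.55, SE 0.15, adjusted p = 0.0452, 2 of 12). *C2* (-0.89, SE 0.23, adjusted p = 0.0364, 3 of 12), *C4b* (-1.04, SE 0.25, adjusted p = 0.0311, 4 of 12), whose near copy could share its reads, *C6* of the membrane attack complex (-1.79, SE 0.44, adjusted p = 0.0320, 4 of 12) and *Cfd*, factor D, which fat cells make (-2.30, SE 0.58, adjusted p = 0.0341, 4 of 12), also had a lower difference. *C2* overlaps *Zbtb12* on the opposite strand. Without IgGK replicate 2 or IgGL replicate 2 a single one of the 8 was called. Of 22 interferon-stimulated genes 4 had a lower difference (18.2%), beside 3.62% of all genes. Among them were *Gbp2* (-1.21, SE 0.20, adjusted p = 0.00878, 12 of 12), *Gbp3* (-0.91, SE 0.22, adjusted p = 0.0319, 6 of 12) and *Ifit2* (-0.62, SE 0.14, adjusted p = 0.0245, 6 of 12). *Gbp2* was at 48.8 to 76.7 CPM in IgGK and 34 to 39.6 in LepK, and at 56.1 to 61.9 in IgGL and 81.1 to 91.8 in LepL, so it fell in kidney (-0.71) and rose in lung (0.50).

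Of 20 genes of glycolysis 9 had a higher difference (median 0.59), and 5 of the 20 fell in lung, beside 3.51% and 4.64% of all genes. *Slc2a1*, the glucose transporter GLUT1 (ENSMUSG00000028645, chromosome 4, 118965908 to 118995180), was at 38.7, 76.2 and 94.7 CPM in IgGL and 25.7, 28 and 23.7 CPM in LepL. In kidney it was at 47, 48.2 and 49.7 CPM in IgGK and 57.9, 65.7 and 55.8 CPM in LepK. The groups did not overlap, IgGL replicate 1 was the lowest of its group, and the difference was 1.74 (SE 0.32, adjusted p = 0.0138, 12 of 12). *Eno1*, enolase, was at 324, 482 and 641 CPM in IgGL and 261, 257 and 207 CPM in LepL, against 759.6 to 811 and 916 to 1018 CPM in IgGK and LepK (1.27, SE 0.26, adjusted p = 0.0192, 11 of 12). Hexokinase *Hk1* (0.79, SE 0.11, adjusted p = 0.00588, 12 of 12), *Pfkl* (0.56, SE 0.11, adjusted p = 0.0161, 12 of 12), *Gpi1* (0.68, SE 0.15, adjusted p = 0.0221, 7 of 12), *Tpi1* (0.67, SE 0.17, adjusted p = 0.0355, 2 of 12), *Pgk1* (1.01, SE 0.25, adjusted p = 0.0320, 3 of 12) and *Pgam1* (0.91, SE 0.23, adjusted p = 0.0344, 3 of 12) differed by less. *Gapdh* (1.54, SE 0.43, adjusted p = 0.0474, 2 of 12) had at most 47.5 CPM, and reads of this gene and of *Eno1* may be shared with near copies elsewhere in the genome, so their values are uncertain. *Gapdh* also overlaps *Iffo1*, which had more counts, on the opposite strand. With scaling by library size alone, 3 glycolysis genes were called higher and 3 lower.

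Of 15 genes that respond to glucocorticoids and related nuclear receptors 8 fell in lung, and 5 had a higher difference (median 0.68). The shares of all genes are 4.64% and 3.51%. *Fkbp5*, a chaperone induced by glucocorticoids (ENSMUSG00000024222, chromosome 17, 28618068 to 28736501), was at 151, 278 and 266 CPM in IgGL and 52.5, 87.5 and 39.3 CPM in LepL. In kidney the levels overlapped, 77.6 to 90.8 CPM in IgGK and 64.2 to 123 in LepK, and the difference was 2.14 (SE 0.42, adjusted p = 0.0162, 12 of 12). *Mt1*, metallothionein 1, which binds zinc and copper (ENSMUSG00000031765, chromosome 8, 94905710 to 94906955), was at 241, 596 and 1005 CPM in IgGL and 140.1, 171 and 100.01 CPM in LepL. In kidney it was at 140.3 to 159.6 CPM in IgGK and 143 to 190.1 in LepK (2.33, SE 0.51, adjusted p = 0.0215, 9 of 12). *Sgk1*, a kinase that regulates sodium transport (1.66, SE 0.37, adjusted p = 0.0238, 8 of 12), *Angptl4*, an inhibitor of lipoprotein lipase (1.17, SE 0.31, adjusted p = 0.0389, 3 of 12), and *Errfi1*, an inhibitor of the EGF receptor (1.19, SE 0.22, adjusted p = 0.0143, 12 of 12), were the others. *Errfi1* rose in kidney with 223 to 242 CPM in IgGK and 353 to 404 CPM in LepK as well, toward the 733 to 771 CPM of WTK, and *Lcn2* was the list's only lower difference. In IgGL replicate 1, *Mt1*, *Sgk1*, *Fkbp5* and *Slc2a1* were each lower than in replicates 2 and 3.

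The promoters of *Mt1*, *Pgk1* and *Slc2a1* are shown because these genes are textbook targets of factors with short known motifs. Metal response elements of *Mt1* bind the zinc sensor MTF1 and hold the letters TGCNCNC, and hypoxia response elements of glycolytic genes bind HIF-1 and hold the letters ACGTG. Both motifs were searched on both strands of the RefSeq promoters, which span 250 bases before to 50 after the start in build GRCm38.p6. Capitals mark the matches: 3 in *Mt1* (chr8:94178839-94179138, plus strand), 2 in *Pgk1* (chrX:106186850-106187149, plus strand) and 1 in *Slc2a1* (chr4:119108495-119108794, plus strand). TGCNCNC occurs in 51.0% and ACGTG in 19.6% of the 32851 promoters, and nothing was measured here about the factors.
Mt1: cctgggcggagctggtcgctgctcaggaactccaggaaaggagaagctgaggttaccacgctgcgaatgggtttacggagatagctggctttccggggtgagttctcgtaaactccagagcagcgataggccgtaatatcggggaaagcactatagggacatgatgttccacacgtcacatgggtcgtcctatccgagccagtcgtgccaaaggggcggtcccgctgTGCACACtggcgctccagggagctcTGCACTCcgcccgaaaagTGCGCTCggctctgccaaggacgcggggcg
Pgk1: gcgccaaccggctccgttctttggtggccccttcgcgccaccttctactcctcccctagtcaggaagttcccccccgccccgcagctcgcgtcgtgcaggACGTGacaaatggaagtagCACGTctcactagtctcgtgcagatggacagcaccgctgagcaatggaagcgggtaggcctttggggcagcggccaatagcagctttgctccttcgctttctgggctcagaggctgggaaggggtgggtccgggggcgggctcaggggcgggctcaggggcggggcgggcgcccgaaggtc
Slc2a1: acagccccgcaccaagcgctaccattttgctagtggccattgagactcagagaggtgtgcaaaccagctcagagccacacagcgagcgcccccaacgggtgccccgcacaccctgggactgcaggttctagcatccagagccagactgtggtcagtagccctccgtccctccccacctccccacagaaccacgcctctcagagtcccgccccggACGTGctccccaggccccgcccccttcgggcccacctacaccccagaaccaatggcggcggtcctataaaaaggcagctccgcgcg

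Clock and stress genes split. Of 19 clock genes *Nr1d1* and *Nr1d2*, the REV-ERB repressors, had a lower difference and *Cry1* and *Nfil3* a higher one. *Nr1d1* was at 49, 30.6 and 36.1 CPM in IgGL and 66.1, 101 and 121 CPM in LepL. The kidney groups overlapped, at 83.9 to 99 CPM in IgGK and 90.0 to 94.4 in LepK (-1.31, SE 0.27, adjusted p = 0.0196, 9 of 12). It overlaps *Thra* on the opposite strand. *Nr1d2* differed by -0.87 (SE 0.19, adjusted p = 0.0207, 10 of 12), *Cry1* by 1.16 (SE 0.31, adjusted p = 0.0408, 2 of 12) and *Nfil3* by 1.88 (SE 0.52, adjusted p = 0.0447, 1 of 12). The hour of euthanasia was not given in the sources used here. Of 23 immediate early genes *Myc* was higher (1.15, SE 0.28, adjusted p = 0.0312, 3 of 12) and *Atf3* (-1.24, SE 0.26, adjusted p = 0.0205, 9 of 12) and *Nr4a1* (-2.27, SE 0.64, adjusted p = 0.0487, 4 of 12) were lower. Of 20 targets of NRF2, the regulator of antioxidant genes, *Gclm* (0.96, SE 0.24, adjusted p = 0.0348, 3 of 12), *Gsr* (0.99, SE 0.27, adjusted p = 0.0422, 2 of 12) and *Srxn1* (0.77, SE 0.21, adjusted p = 0.0429, 1 of 12) were higher. *Gsta2* (-1.62, SE 0.31, adjusted p = 0.0154, 11 of 12), *Gsta4* (-0.76, SE 0.21, adjusted p = 0.0481, 3 of 12) and *Slc7a11* (-1.72, SE 0.44, adjusted p = 0.0368, 2 of 12) were lower. The share called was 21.1% of the clock, 13.0% of the immediate early and 30% of the NRF2 list, beside 7.12% of all genes.

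All 26 genes listed for oxidative phosphorylation, nuclear-encoded subunits of the respiratory chain and ATP synthase, had a difference above 0 (median 0.50, from 0.48 in kidney and -0.02 in lung), and 12 passed the test, beside 3.51% of all genes. Within organs 7 of the 26 rose in kidney and none was called in lung. Several have near copies elsewhere in the genome that could share their reads. *Atp5b*, the beta subunit of ATP synthase (ENSMUSG00000025393, chromosome 10, 127919142 to 127926260), was at 1817, 1553 and 1768 CPM in IgGK and 2826, 2276 and 2372 CPM in LepK. In lung it was at 595, 619 and 703 CPM in IgGL and 561, 580.5 and 576 CPM in LepL, and vehicle kidneys held 3957 to 4107 CPM. The difference was 0.70 (SE 0.16, adjusted p = 0.0244, 8 of 12). Other calls were in complex I (*Ndufa4*, *Ndufa8*, *Ndufs3*, *Ndufv1*), complex II (*Sdhb*, *Sdhc*), complex III (*Uqcrc1*), complex IV (*Cox4i1*, *Cox5a*) and ATP synthase (*Atp5c1*), with differences from 0.44 (*Sdhc*, 1 of 12) to 0.68 (*Sdhb*, 7 of 12). In kidney both the list and the share of counts on the mitochondrial genome given above were higher in LepK. In lung that share was also higher with LepAb, while the summed level of the list was 3221 to 3763 CPM in IgGL and 3393 to 3416 CPM in LepL. With the genes of the mitochondrial genome left out before scaling, 13 were called. None was called without IgGK replicate 2 or without IgGL replicate 2, with medians of 0.45 and 0.50, and scaling by library size alone gave 2 calls and a median of 0.24. Of 25 genes of fatty acid oxidation *Cpt1a* (0.60, SE 0.17, adjusted p = 0.0477, 2 of 12), *Acads* (0.66, SE 0.16, adjusted p = 0.0311, 5 of 12) and *Eci2* (0.64, SE 0.14, adjusted p = 0.0205, 7 of 12) were higher (median 0.07). In sterol synthesis *Lss* (0.72, SE 0.18, adjusted p = 0.0368, 2 of 12) and *Mvd* (0.83, SE 0.20, adjusted p = 0.0322, 3 of 12) were higher among 21.

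Of 20 genes of the proximal tubule 14 rose in kidney, beside 2.71% of all genes, and many had few counts in lung. *Aqp1*, a water channel that lung endothelium also expresses, was at 515 to 634 CPM in IgGK, 899 to 965 in LepK, 659 to 932 in IgGL and 615 to 684 in LepL (0.88, SE 0.19, adjusted p = 0.0205, 10 of 12). *Gatm*, which makes a precursor of creatine (1.08, SE 0.21, adjusted p = 0.0164, 12 of 12), and *Cubn*, the receptor cubilin (1.19, SE 0.27, adjusted p = 0.0256, 7 of 12), were the other calls. Among 19 genes of distal nephron and collecting duct, *Scnn1a*, the alpha subunit of the sodium channel ENaC, which lung epithelium also uses, was at 109, 96.5 and 111 CPM in IgGK and 194, 155 and 159 CPM in LepK. It was at 519 to 770.2 CPM in IgGL and 401 to 552 in LepL, which overlapped (1.15, SE 0.22, adjusted p = 0.0152, 12 of 12). *Atp6v1b1* of the proton pump (-1.53, SE 0.42, adjusted p = 0.0433, 2 of 12) and the magnesium channel *Trpm6* (-0.95, SE 0.18, adjusted p = 0.0160, 12 of 12) were lower. Of 15 genes of injured tubule, *Prom1* (-0.93, SE 0.23, adjusted p = 0.0321, 4 of 12) and *Lcn2* were lower, with log2 fold changes in kidney of -0.53 for *Prom1*, which was not called, and -1.33 for *Lcn2*. Of 20 endothelial genes *Flt1* (0.76, SE 0.17, adjusted p = 0.0233, 7 of 12) and *Sox17* (0.60, SE 0.17, adjusted p = 0.0481, 3 of 12) were higher and *Aplnr* was lower (-1.82, SE 0.32, adjusted p = 0.0121, 12 of 12). The share called was 15% of the proximal tubule, 15.8% of the distal nephron, 13.3% of the injured tubule and 15% of the endothelial list. Over all genes it was 7.12%.

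In lung, 15 of 16 genes of alveolar type 2 cells rose, beside 4.97% of all genes, and 7 of the 16 had a lower difference, beside 3.62%. The median difference was -1.99, and -1.39 over the 10 genes with at least 1 CPM in both organs. In kidney the median log2 fold change of the list was -0.64. Its summed level there was nonetheless higher with LepAb, at 1605 to 1905 CPM in IgGK and 2425 to 3017 CPM in LepK, without overlap. *Slc34a2*, the phosphate carrier of type 2 cells (ENSMUSG00000029188, chromosome 5, 53195423 to 53229006), was at 833, 618 and 345 CPM in IgGL and 1116, 1363 and 1506 CPM in LepL. In kidney it was at 36.5 to 38.6 CPM in IgGK and 18.3 to 24.4 in LepK. The groups were apart in both organs and the difference was -1.91 (SE 0.34, adjusted p = 0.0119, 12 of 12). *Sftpd*, surfactant protein D, was at 513 to 646 CPM in IgGL and 853 to 867 in LepL. It was at 1.14 to 1.41 CPM in IgGK and 0.15 to 0.42 CPM in LepK, and the kidney side of its difference (-2.80, SE 0.30, adjusted p = 0.00140, 12 of 12) rests on low counts. *Lpcat1*, which makes surfactant lipid (-1.33, SE 0.22, adjusted p = 0.00903, 12 of 12), the mucin *Muc1* (-1.01, SE 0.20, adjusted p = 0.0160, 12 of 12) and the transcription factor *Etv5* (-1.06, SE 0.26, adjusted p = 0.0330, 3 of 12) rose in lung and did not pass in kidney. Among 14 airway secretory genes *Gabrp* (-2.04, SE 0.27, adjusted p = 0.00445, 12 of 12), *Aldh3a1* (-2.41, SE 0.52, adjusted p = 0.0209, 9 of 12) and the basal keratin *Krt5* (-2.33, SE 0.65, adjusted p = 0.0467, 3 of 12) were lower. Among 17 ciliated cell genes *Dnah5* (-2.01, SE 0.45, adjusted p = 0.0242, 6 of 12) and *Rsph4a* (-1.61, SE 0.39, adjusted p = 0.0304, 3 of 12) were. These calls are 21.4% of the airway and 11.8% of the ciliated list, beside 3.62% of all genes called lower. *Gabrp* was at 15.3 to 17.6 CPM in IgGK, 5.69 to 10.9 in LepK, 20.4 to 28 in IgGL and 45.4 to 52.5 in LepL, apart in both organs. Of 12 genes of the mesothelium *Upk3b*, which rose in lung, was the only call (-1.55, SE 0.30, adjusted p = 0.0154, 12 of 12). That is 8.33% of the list, beside 7.12% of all genes called in either direction. *Il33* and *Lyz1*, given above, completed the alveolar type 2 calls. The alveolar type 2 call count was 6 to 11 in the 12 fits that left out 1 library.

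Of 17 genes of fat cells 8 had a lower difference, beside 3.62% of all genes, and the median was -2.29. *Cidec*, a protein of the fat droplet, was at 64.4, 88.7 and 60.4 CPM in IgGK and 46, 44.5 and 19.8 CPM in LepK. It was at 7.41, 6.16 and 6.26 CPM in IgGL and 17.8, 13.3 and 17.6 CPM in LepL (-2.25, SE 0.37, adjusted p = 0.00878, 12 of 12), and the groups did not overlap. *Adipoq* was at 60.9, 72.8 and 40.7 and 31.4, 33.5 and 9.51 CPM in IgGK and LepK. The level in lung was 5.31, 3.78 and 3.95 and 14.8, 9.69 and 12.9 CPM in IgGL and LepL. *Plin1* (-2.71, SE 0.69, adjusted p = 0.0355, 1 of 12), *Cidea* (-2.35, SE 0.55, adjusted p = 0.0266, 7 of 12), *Retn* (-2.29, SE 0.53, adjusted p = 0.0257, 6 of 12), *Adrb3* (-2.33, SE 0.65, adjusted p = 0.0474, 2 of 12), *Cfd* and *Car3* completed the calls. *Lep*, the leptin gene itself, did not pass (-0.65, interval -3.18 to 1.89). LepK replicate 3 was the lowest kidney library for *Adipoq*, *Cidec*, *Plin1*, *Retn* and *Adrb3*. The summed level of the list, in which *Lpl* and other genes of many cell types count, was 2363, 2465 and 1915 CPM in IgGK, 2025, 1932 and 1195 in LepK. In lung it was 1101 to 1193 CPM in IgGL and 1023 to 1152 in LepL, so its lung groups overlapped. Without IgGK replicate 2 or IgGL replicate 2, 3 of the 17 were called. The part that fat around the organs plays in these values was not tested. Skeletal muscle genes had a median of -1.47 with *Tnni2* as the only call (-2.83, SE 0.77, adjusted p = 0.0444, 3 of 12), beside the spread of muscle transcripts in lung given above. All 7 hemoglobin and other red cell genes tested had a difference above 0 (median 1.58), and none was called. Their summed level was 115 to 217 CPM in IgGK and 296 to 494 CPM in LepK, without overlap. The lung groups overlapped, at 1675, 822 and 6202 CPM in IgGL replicates 1 to 3 and 1678 to 2112 CPM in LepL.

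**Figure D5:**
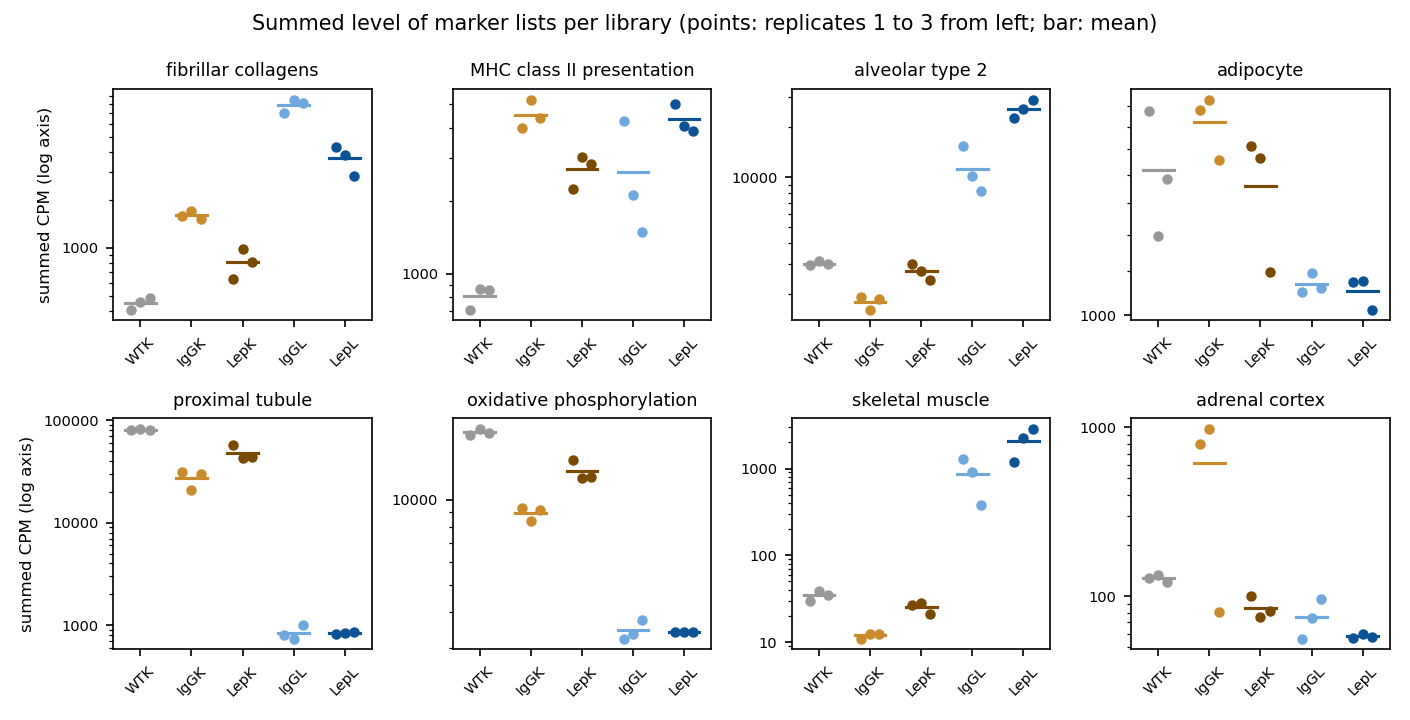
Summed level of 8 lists of genes in each library (y axis, summed CPM on a log axis; points are replicates 1 to 3 from left to right, bars are means of 3). With LepAb the sum of fibrillar collagens was lower and that of alveolar type 2 genes higher in both organs. MHC class II genes of IgGL replicate 1 lay among LepL, and adrenal cortex genes stood at 796 and 982 CPM in IgGK replicates 1 and 2.

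Of genes with at least 1 CPM in kidney only, 56 of 1626 were called (3.44%). In lung only it was 65 of 1329 (4.89%), beside 7.12% of all genes. Such genes had low counts in the other organ. *Rrh*, *Clec2h*, *Lrrc66*, *Tbx10* and *Mep1a*, all kidney genes here, had the highest differences, with a trace in IgGL and 0 counts in LepL. *Rrh* had 8, 4 and 12 counts in IgGL and 0 in LepL, which is at least 8.17-fold lower against a floor of 3 counts over the group. *Mep1a*, a protease of the tubule brush border, had 13, 6 and 0 counts in IgGL. In the other direction *Th*, *Cyp11a1*, *Chgb* and *Cyp21a2-ps*, genes of the adrenal medulla and cortex, were high in IgGK replicate 1 or 2. *Cyp21a2-ps*, with 745 counts over the 12 libraries, overlaps *Tnxb* on the opposite strand, with 24135 counts. *Cyp11a1* was at 90.0, 95.7 and 1.41 CPM and *Chgb* at 1.94, 60.4 and 1.67 CPM in IgGK. *Crisp1* was at 5.47 to 9.97 CPM in IgGK and 3.51 to 4.65 in LepK, with 0 counts in IgGL and 4, 7 and 15 in LepL. Among lung genes *Serpina3m*, an acute-phase protease inhibitor whose reads may be shared with its neighbours, fell from 29, 65.3 and 62.2 CPM in IgGL to 5.24, 13 and 4.92 CPM in LepL (5.20, SE 1.22, adjusted p = 0.0267, 6 of 12). *Oacyl* fell with 1.66 to 5.25 CPM in IgGL and 0.744 to 1.05 CPM in LepL (3.30, SE 0.88, adjusted p = 0.0417, 3 of 12). *Kcnc4*, *Vsnl1* and *Fam131b* were at 0 counts in LepK with 40, 91 and 23 counts in IgGK in all. Their kidney falls are at least 11.4-, 25.9- and 6.55-fold on the same floor. *Fam131b* overlaps *Clcn1* on the opposite strand. *Vsnl1* had 0.86, 2.18 and 0 CPM in IgGK and follows the adrenal transcripts. *Tmem121b* (-6.31, SE 1.29, adjusted p = 0.0192, 8 of 12) and *Serpinb12* (-5.23, SE 1.30, adjusted p = 0.0327, 6 of 12) had under 1 CPM in each kidney library.

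Of 18 genes listed for leptin signaling, *Irs1*, the insulin receptor substrate, was the only call (-1.07, SE 0.30, adjusted p = 0.0497, 2 of 12), and the median was -0.04. The receptor *Lepr* differed by -0.30 (interval -0.87 to 0.27), *Jak2* by -0.08 (-0.37 to 0.21) and *Stat3* by 0.12 (-0.18 to 0.42). The feedback inhibitor *Socs3* differed by -0.32 (-0.77 to 0.13), whose fall of 0.81 in kidney passed the test and whose change of -0.49 in lung did not. No gene was called in the difference among 26 of the cell cycle (median -0.21), 16 targets of p53 (0.02), 18 of the unfolded protein response (0.03) or 15 heat shock genes. The same held for 22 ribosomal proteins (0.17), 10 podocyte genes (0.16) and 14 of alveolar type 1 cells (-0.39). It also held for 14 of the transitional alveolar epithelium (0.31) and 14 of cardiac muscle (-0.46) in edgeR. With 7.12% of all genes called, lists of this size could hold few calls or none. A missed threshold does not show that the effects are equal: 44.1% of all genes tested had a 95% interval within 1 of 0.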

How the data were processed

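RNA from whole kidney and lung was sequenced as poly(A) libraries without strand information, and the authors deposited one table of raw read counts per gene, made by the sequencing provider. The genome build in the submitters' processing notes is GRCm39, and the aligner and counting tool are not given in the sources used here. Count columns of all 15 libraries were matched to titles by the library code in each sample's description, and one of them carries a further suffix. For most samples a free-text line in the description names a condition other than that of the title. Titles and library codes match each other and were used. The authors' FPKM values, group means, fold changes and p-values in the same table were not used.

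Genes were kept by edgeR's filterByExpr on the groups (minimum count 10, minimum total 15), scaled by TMM and fitted with 4 group means over the 12 injured libraries in edgeR 4.0.16 (quasi-likelihood test, R 4.3.3). The difference was the contrast (LepK minus IgGK) minus (LepL minus IgGL), called at a Benjamini-Hochberg adjusted p under 0.05. Within an organ an absolute log2 fold change over 0.5 was also required. Levels are CPM on TMM-scaled library sizes, with 95% intervals from the fit. Named genes were the 12 highest and 12 lowest differences among called genes with at least 1 CPM in both organs, up to 6 a direction called oppositely in the organs, the 5 highest and 5 lowest for genes with at least 1 CPM in one organ only, the RT-qPCR genes, called members of the lists, and the 6 narrowest intervals among genes called in the same direction in both organs. The comparison, members and lists were chosen with earlier results of these data known. Replicates of a group differed by more than sampling noise. The model was tested on simulated data, with changes set in genes of at least 1 CPM in both organs. It called 54% of 100 genes given a log2 difference of 1 and 81% of 100 given 2. There were 6 false calls among 20922 genes tested, so many differences of 1 would be missed. Alternatives were other scalings and filters, DESeq2 1.42.0, limma voom 3.58.1, other sets of samples and genes, other thresholds, a replicate block and leaving out each library. The replicate numbers come from the titles, and whether they pair the libraries was not settled. No genome of build GRCm39 was used here, so sequences are RefSeq promoters of build GRCm38.p6, which matched all 4 genes shown. A few called members of the lists are not reported here by name.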

Additional observations from a re-analysis of the deposited data

Results flagged for a closer look

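The difference between the organs was itself tested in edgeR. It was past the threshold for 754 genes with a difference above 0 and 777 genes with one below 0. Of these, 20 rose in kidney and fell in lung and 38 fell in kidney and rose in lung, each change being called within its organ. Among those with at least 1 CPM in both organs and a gene symbol other than a model number, the 6 with the highest difference were *Kcnt1* (4.60 on the log2 scale), *Exoc3l2* (2.18), *Cwh43* (1.89), *Gpx3* (1.84), *Notum* (1.68) and *Cgref1* (1.62). The 6 with the lowest were *Zbed6* (-3.15), *Scn3a* (-3.01), *Adipoq* (-2.74), *Dcdc2a* (-2.60), *Lyz2* (-2.41) and *Shh* (-2.34). All 12 were called in each of the 12 fits that left out 1 library. The groups have 3 libraries each, so no library was tested as far from its group.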

How the results depend on the processing

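All 1531 called genes kept the sign of their difference wherever they were tested. Named genes with an uncalled difference near 0 changed sign between alternatives without being called, such as *Col1a1* (-0.23 to 0.20) and *Lama4* (-0.28 to 0.10). The number of calls moved far more. With 1 library left out, the calls of the difference ran from 141 to 1853 higher and from 195 to 1910 lower, those in kidney from 142 to 735 higher and 395 to 1211 lower, and those in lung from 266 to 2120 higher and 321 to 1702 lower. The low ends came from leaving out LepK replicate 1, LepL replicate 3 or IgGL replicate 2, and the high ends from leaving out IgGL replicate 1 or 3. Of 167 called genes named, 48 were called in each of these 12 fits and 37 in at most 2. DESeq2 called 1435 higher and 1491 lower differences and 887 genes higher in kidney, and limma voom called 981 higher in kidney. Scaling by library size alone gave 249 and 1968 for the difference and 199 and 2016 in kidney. Each organ fitted apart gave 198 and 352, and 349 and 463 in lung. No filter on low counts gave 1563 lower differences and 895 genes higher in kidney. A test against a log2 change of 0.5 (edgeR glmTreat) gave 19 and 54 for the difference, 25 and 90 in kidney and 86 and 114 in lung. An absolute log2 value over 1 gave 211 and 473, 118 and 413, and 511 and 382. Without IgGK replicates 1 and 2, an alternative chosen after seeing the data, there were 2 and 2 for the difference and 0 and 1 in kidney by edgeR, with 3361 differences at an unadjusted p under 0.05. Calls that changed there or with fewer libraries rest on fewer samples, and for the other alternatives the cause was not tested.

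With the replicate number as a block, 554 higher and 703 lower differences were called, and 1030 of the 1531 calls remained. Correlations of same-numbered libraries' deviations were 0.14, 0.11 and -0.03 in kidney and -0.02, 0.05 and -0.05 in lung. Those of differently numbered libraries ran from -0.15 to 0.04 in kidney and from -0.07 to 0.09 in lung. Whether the numbers pair the libraries was therefore not settled. With 3 libraries a group, the median standard error of a difference was 0.31, and the smallest called difference was 0.37.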

Other observations

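Only 2 genes rose in both organs and had a called difference, and both are named here after their values were seen. *Nat8f5*, an N-acetyltransferase, was at 18.5, 17.8 and 21.2 CPM in IgGK and 48.9, 40.0 and 42.6 CPM in LepK, and at 0, 0.0529 and 0 CPM in IgGL and 0.310, 0.251 and 0.216 CPM in LepL. Its difference was -2.34 (SE 0.65, adjusted p = 0.0481) in edgeR. The lung levels of *Nat8f5* are those of a few reads, and those of the other gene, the predicted *Gm44120*, are too, at 0 CPM in IgGL and 0.0557 to 0.144 CPM in LepL.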
